A study of Mus musculus with 2 samples.

Results

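Complement is a set of plasma and tissue proteins that tag microbes and damaged cells for uptake and draw leukocytes to them. The 9 genes described here were chosen by symbol and by role, as components of the classical and alternative pathways (C1ra, C2, C3, C4b, Cfb, Cfp), a regulator (Serping1) and the receptors of the anaphylatoxins (C3ar1, C5ar1), and all 9 were found among the 24346 genes with values. The values are FPKM, the fragments of a gene scaled to the length of its transcript and to the mapped fragments of the library, from bulk mRNA of 1 WT and 1 PU.1-/- library. Both libraries came from dorsal skin of 1-day-old C57BL/6J pups, and the wounds were collected 24 h after injury. The PU.1-/- pups (PU.1_KO in the labels) were littermates of the WT pups and lack the transcription factor PU.1, encoded by Spi1. Per the study, such mice have no macrophages, neutrophils, mast cells or T cells. The methods describe an incision and the design text an excision, and how many pups went into each library is not given in the sources used here. With 1 library per genotype there is no spread between animals and no p-value, so each difference below compares these 2 libraries. A gene was called lower or higher where the libraries differed 2-fold or more, after FPKM under 0.1 had been set to 0.1.

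In the classical pathway, the C1 complex binds to a surface and its proteases C1r and C1s cleave C4 and C2 into an enzyme that splits C3. In the alternative pathway, factor B on deposited C3b is activated by factor D and the enzyme so formed is held together by properdin. Both routes release the small peptides C3a and C5a, which act on C3ar1 and C5ar1 of myeloid cells. The liver makes most plasma complement, while fibroblasts, keratinocytes and macrophages also make components locally.

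The 9 genes fell into 3 sets. C3ar1, C5ar1 and Cfp were near or at 0 in the PU.1-/- wound, C3 and C4b were about 3-fold lower with Cfb just short of the threshold, and C1ra, C2 and Serping1 had 1.40, 1.13 and 1.15 times their WT values. By the threshold, 5 of 9 genes (55.6%) were called lower and 0 higher. Of the 16298 genes that reached 0.1 FPKM in either library, which are the genes tested, 6.49% were called lower and 3.47% higher. Of the 9762 genes that reached 5 FPKM in either, as all 9 genes did, 3.13% were called lower. C3ar1, C5ar1, Cfp and C4b reached 5 FPKM in WT only, and the 9 genes were chosen with earlier results of these data known. The shares are therefore a description and not a test. On the log2 scale of PU.1-/- over WT, the 9 genes had a median of -1.58, against -0.01 over the genes tested, and single genes ranged from -7.93 to 0.49. The 2 receptors at 0 enter these log2 ratios at 0.1 FPKM, so the lowest values depend on that floor.

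**Figure D1:**
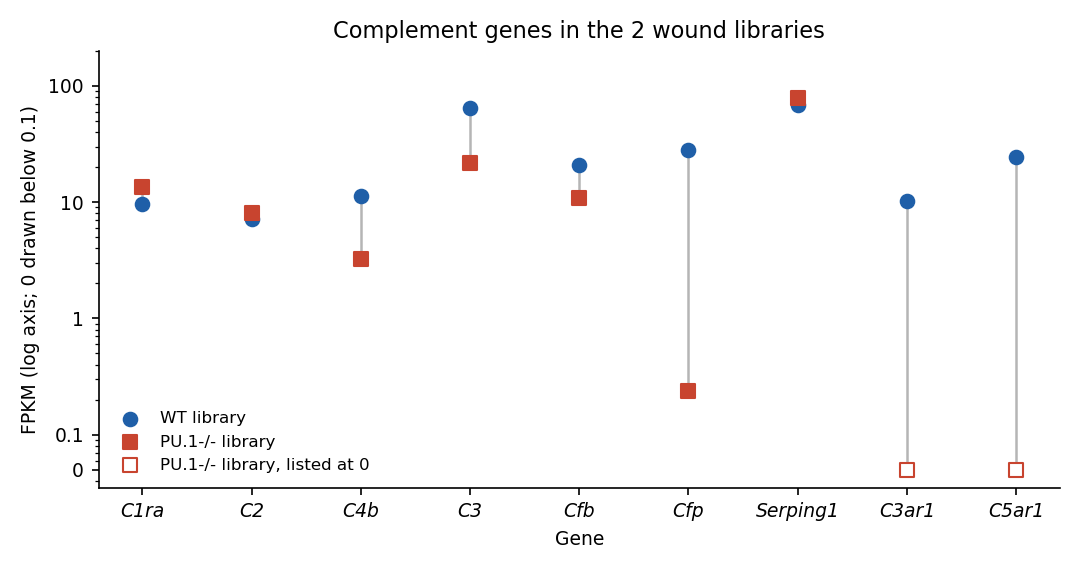
FPKM (log axis) of the 9 complement genes in the WT library (circles) and the PU.1-/- library (squares), 1 library per genotype; open squares mark values listed at 0. C3ar1 and C5ar1 are at 0 and Cfp is at 0.239 FPKM in the PU.1-/- library, while Serping1 is the highest of the 9 genes in both.

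Promoters are shown for the 3 genes at or near 0 in the PU.1-/- wound and for C1ra, which was not lower, because PU.1 binds purine-rich sites around a GGAA core. RefSeq windows of 300 bases (250 before the transcript start and 50 from it) were found for 5 of the 9 genes, C1ra, C3, Cfp, C3ar1 and C5ar1, on GRCm38.p6, the assembly of mm10. Capitals mark the letters GAGGAA, searched on both strands, so that TTCCTC is the same site read on the other strand. The window of Cfp lies at chrX:20931506-20931805 on the minus strand, that of C3ar1 at chr6:122856108-122856407 on the minus strand, that of C5ar1 at chr7:16259289-16259588 on the minus strand and that of C1ra at chr6:124512371-124512670 on the plus strand. The C5ar1 window is set on a start inside the outer limits that RefSeq gives the gene.
Cfp: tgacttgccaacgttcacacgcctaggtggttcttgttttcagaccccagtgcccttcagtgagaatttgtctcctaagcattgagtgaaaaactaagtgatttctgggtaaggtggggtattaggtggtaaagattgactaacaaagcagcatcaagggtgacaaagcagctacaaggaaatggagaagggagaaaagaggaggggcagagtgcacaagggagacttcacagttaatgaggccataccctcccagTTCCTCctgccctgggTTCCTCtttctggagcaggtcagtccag
C3ar1: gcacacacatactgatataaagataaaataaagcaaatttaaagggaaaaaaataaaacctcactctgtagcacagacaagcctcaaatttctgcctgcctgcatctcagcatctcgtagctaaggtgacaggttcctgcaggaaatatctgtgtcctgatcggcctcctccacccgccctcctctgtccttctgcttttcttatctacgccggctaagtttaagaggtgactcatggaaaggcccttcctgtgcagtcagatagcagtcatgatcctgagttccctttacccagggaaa
C5ar1: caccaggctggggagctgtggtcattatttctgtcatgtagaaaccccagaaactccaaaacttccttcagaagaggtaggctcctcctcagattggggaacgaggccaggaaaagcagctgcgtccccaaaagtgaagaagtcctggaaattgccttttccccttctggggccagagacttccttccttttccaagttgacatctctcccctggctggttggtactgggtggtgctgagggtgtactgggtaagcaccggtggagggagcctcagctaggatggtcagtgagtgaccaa
C1ra: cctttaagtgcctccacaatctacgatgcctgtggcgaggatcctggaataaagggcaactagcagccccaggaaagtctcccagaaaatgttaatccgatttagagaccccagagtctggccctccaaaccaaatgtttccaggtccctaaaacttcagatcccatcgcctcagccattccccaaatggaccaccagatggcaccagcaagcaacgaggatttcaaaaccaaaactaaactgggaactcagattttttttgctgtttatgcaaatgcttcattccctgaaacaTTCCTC
The Cfp window held 2 copies, both within the first 50 transcribed bases, and the C1ra window held 1, also after the start. The windows of C3ar1, C5ar1 and C3 held no GAGGAA. The GGAA core alone was not searched and occurs in each of these windows, so they are not shown to lack PU.1 sites. The letters occurred in 28.3% of 32851 promoter windows of this length, so a match is a description and not a binding site.

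Spi1 itself had an FPKM of 35.4 in the WT library and of 1.45 in the PU.1-/- library. The depth, estimated from the whole-read steps of low FPKM values, was 1.37e+07 fragments for WT and 1.58e+07 for PU.1-/-. Skin markers were abundant in both libraries, with Krt5 at 1216 and 1273 FPKM, and the general genes Actb and Gapdh had 1010 and 1404 FPKM in WT against 662 and 1541 FPKM in PU.1-/-. The libraries also differed in skeletal muscle markers (4 genes, summed FPKM 1.77 times higher in PU.1-/-, with Ckm at 674 and 1080 FPKM) and in sex-linked genes, with Xist listed at 0 in WT and at 9.48 FPKM in PU.1-/- and all 4 Y-linked genes examined listed at 0 in PU.1-/- only. Genotype and the sex of the pups therefore cannot be told apart in any value given here.

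Both anaphylatoxin receptor genes were expressed in the WT wound and listed at 0 in the PU.1-/- wound. C5ar1, the receptor of C5a that draws neutrophils and monocytes to a wound, had 24.4 FPKM in the WT library, an estimated 784 reads, and was listed at 0 in the PU.1-/- library. C3ar1, the receptor of C3a, had 10.1 FPKM in the WT library, an estimated 572 reads, and was also listed at 0. No fold is given against a 0, but 3 reads would have been 0.0812 FPKM for C5ar1 and 0.0463 FPKM for C3ar1 at the PU.1-/- depth. In the WT wound C5ar1 was 2.41 times as abundant as C3ar1 per length of transcript. C5ar1 lies on chromosome 7 of mm10 from 16246743 to 16259540 and C3ar1 on chromosome 6 from 122847140 to 122856157, each with 2 exons on the minus strand.

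Of the 6 other complement receptor genes tested, 3 were called lower (Itgam, Itgb2 and C5ar2) and 3 were not called (Cd93, Itgax and Vsig4). Over all genes tested, 6.49% were called lower. Itgam and Itgb2, the subunits of complement receptor 3, which takes up particles coated with the C3 fragment iC3b, had 24.8 and 20.4 FPKM in WT and 0.378 and 0.165 FPKM in PU.1-/-. Their WT over PU.1-/- ratios were 65.6 (95% counting interval 44.5 to 99.0) and 123 (61.6 to 318). Intervals here are exact binomial (Clopper-Pearson) on the estimated reads and cover counting error only, with no spread between animals. They may be too narrow even for that, since PCR copies are not told from molecules. Cd93, which is also made by endothelium, had 16.9 and 13.4 FPKM and was not called. C5ar2, the second receptor of C5a, was called lower at under 1 FPKM in both libraries. Itgax and Vsig4 were under 1 FPKM in WT and listed at 0 in PU.1-/-, and Cr2 was too low to be tested.

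Most marker genes of the cells that carry these receptors were also lower. Of 7 macrophage markers tested, 6 were called lower, and the summed FPKM of the 8 on the list was 405 in WT and 7.90 in PU.1-/-. Adgre1, Tyrobp and C1qa, itself a complement gene, were listed at 0 in PU.1-/-. Cx3cr1 was also listed at 0 there, but had only 0.0813 FPKM in WT and was not tested. Of the mast cell markers 5 of 6 were called lower, with Cpa3 at 150.3 and 0.303 FPKM, a summed FPKM of 691 and 7.30, and Mcpt4 and Fcer1a listed at 0. Of the monocyte markers 3 of 4 were called lower (Ly6c2 at 25.6 and 0.107 FPKM, Ccr2 listed at 0, sums 211 and 96.7 FPKM, most of the second from Plac8), and of the neutrophil markers 5 of 7 (Csf3r and Retnlg listed at 0, sums 12141 and 3652 FPKM, nearly all from S100a8 and S100a9, which keratinocytes of injured skin also express). The tested markers of these lists that were not called were Mertk (3.87 and 2.68 FPKM), Kit (8.08 and 5.77 FPKM), Plac8, Cxcr2 and Mpo. Plac8 had 112 and 96.5 FPKM and Cxcr2 11.2 and 7.17 FPKM, while Mpo was under 1 FPKM in both libraries. Ptprc, the leukocyte antigen CD45, went from 5.77 FPKM to 0. In bulk tissue, fewer cells of a type and less RNA per cell cannot be told apart, and the part of these cells in the values of each complement gene was not tested.

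Properdin, the stabilizer of the alternative pathway enzyme that neutrophils, monocytes and mast cells store or secrete, is encoded by Cfp on chromosome X from 20925454 to 20931555 (9 exons, minus strand). Cfp had 28.0 FPKM in the WT library, the third highest of the 9 genes, and was down to 0.239 FPKM in the PU.1-/- library. The estimated reads were 552 and 5, and the WT over PU.1-/- ratio was 117 (54.0 to 392). The interval is wide, as the PU.1-/- value rests on 5 reads. Cfp was thus 11.5% of the summed FPKM of the 9 genes in WT and 0.176% in PU.1-/-.

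C3, the protein on which all pathways converge, was lower but still well expressed without PU.1. C3, on chromosome 17 from 57203967 to 57228136 (41 exons, minus strand), had an FPKM of 64.6 in WT and of 21.7 in PU.1-/-, a ratio of 2.98 (2.82 to 3.16) from an estimated 4380 and 1687 reads. It was the second most abundant of the 9 genes in both libraries. Cfb, which encodes factor B, had an FPKM of 20.9 in WT and of 10.9 in PU.1-/-. The Cfb ratio of 1.91 (1.70 to 2.16) did not reach 2, and its counting interval held both 2 and values below it. Relative to Cfb, C3 was 3.09 times as abundant in WT and 1.98 times in PU.1-/-.

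C4b, whose product is cleaved by C1s and binds covalently to surfaces like C3, had an FPKM of 11.3 in WT and of 3.23 in PU.1-/-, a ratio of 3.49 (3.03 to 4.03). C4b lies on chromosome 17 from 34728139 to 34743902 (41 exons, minus strand). Its near-identical paralog C4a had 0.0419 FPKM in WT and was listed at 0 in PU.1-/-, and how the counting divided reads between the copies is not given in the sources used here. C2, the partner of C4 in the classical C3 convertase, did not go with C4b. C2 had an FPKM of 7.22 in WT and of 8.14 in PU.1-/-, a PU.1-/- over WT ratio of 1.13 (0.952 to 1.34) whose interval held 1. C4b was therefore 1.56 times as abundant as C2 in the WT wound and 0.396 times in the PU.1-/- wound.

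C2 and Cfb, which encode related serine proteases, are neighbours on the minus strand of chromosome 17, with C2 from 34862602 to 34882100 and Cfb from 34856374 to 34862514, 87 bases apart. Their counting intervals did not overlap, with PU.1-/- over WT ratios of 0.952 to 1.34 for C2 and 0.464 to 0.590 for Cfb. C2 was the lowest of the 9 genes in WT and the fifth in PU.1-/-.

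C1ra, one of the protease genes of the C1 complex, was higher in the PU.1-/- wound without reaching the threshold. C1ra, on chromosome 6 from 124512621 to 124523440 (11 exons, plus strand), had an FPKM of 9.54 in WT and of 13.4 in PU.1-/-, a PU.1-/- over WT ratio of 1.40 (1.23 to 1.60). C1s1, the gene of its partner protease and its neighbour on the chromosome, had 9.99 and 13.4 FPKM. The C1ra to C1s1 ratio was 0.955 in WT and 0.994 in PU.1-/-. The paralogs C1rb and C1s2 were at 0 or below 0.1 FPKM in both libraries.

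Serping1 encodes C1 inhibitor, which removes C1r and C1s from the C1 complex and also blocks the lectin pathway and kallikrein. Serping1, on chromosome 2 from 84765360 to 84775444 (8 exons, minus strand), was the most abundant of the 9 genes in both libraries, with an FPKM of 67.9 in WT and of 78.2 in PU.1-/-. The PU.1-/- over WT ratio of 1.15 (1.08 to 1.23) had a counting interval above 1 and below 2. C3 had 0.951 times the FPKM of Serping1 in WT and 0.277 times in PU.1-/-. Serping1 made up 27.8% of the summed FPKM of the 9 genes in WT and 57.6% in PU.1-/-, where the sum itself was 136 FPKM against 244 FPKM.

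**Figure D2:**
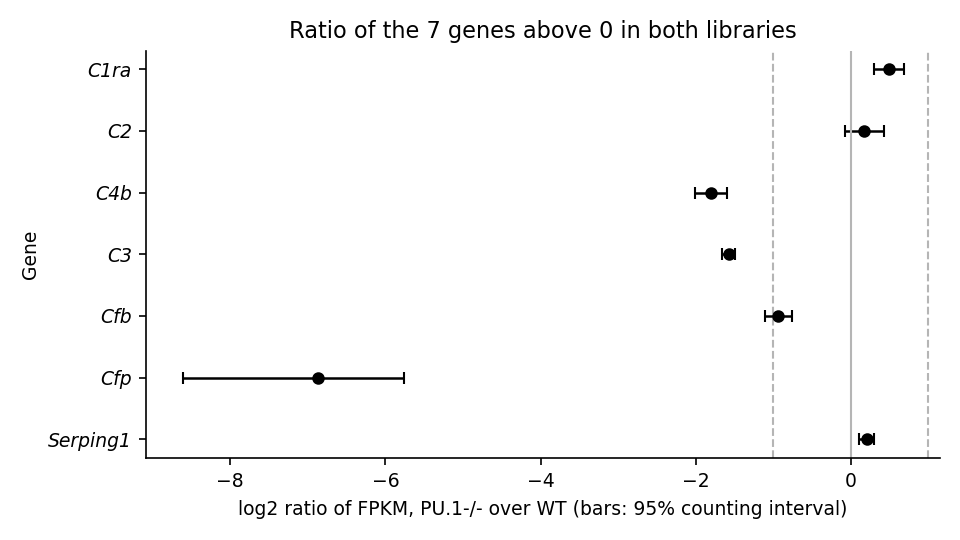
The log2 ratio of FPKM (PU.1-/- over WT) for the 7 genes above 0 in both libraries; bars are 95% counting intervals, the solid line marks equal values and the dashed lines a 2-fold difference. C3, C4b and Cfp lie beyond 2-fold lower with their whole intervals, Cfb straddles that line, and C1ra, C2 and Serping1 lie at or above equality.

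Markers of the skin's own cells are given here beside C3, C4b and Cfb as well as C1ra, C2 and Serping1. The study compared its single-cell data of adult wounds with the genes lower in PU.1-/- in this same bulk comparison. It so listed C3, C4b and Pi16 among candidate genes of wound fibroblasts, and being lower here was a condition of that list. Of these, it then named only Pi16 as specifically expressed by such fibroblasts. Of the 7 fibroblast markers, Pdgfra, Dcn, Lum, Col1a1, Col1a2 and Dpt had PU.1-/- over WT ratios of 1.09 to 1.39, and Pi16, at 19.9 and 8.79 FPKM, was called lower. The summed fibroblast markers were 1.23 times higher in PU.1-/-, the 4 endothelial markers 1.21 times (Pecam1 at 65.3 and 78.7 FPKM) and the 4 keratinocyte markers 1.14 times. Of the 6 liver cell markers, Apob and Serpina1a were listed at 0 in both libraries and Apoa1 was under 0.1 FPKM in both. Alb had 1.10 and 0.719 FPKM, and Fga had 11.9 and 14.5 FPKM. Ttr was called higher at 0 and 0.311 FPKM, but this rests on an estimated 5 reads in PU.1-/- and on the floor. The part of any of these cell types in the complement values was not tested.

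Among the other complement genes (46 by role, of which 29 had at least 0.1 FPKM in a library), 9 were called lower, 3 higher and 17 neither, with a median log2 ratio of -0.27. Of the 29, 31.0% were thus called lower, beside 6.49% lower and 3.47% higher over all genes tested. C1qa, C1qb and C1qc, the recognition subunits of C1, had 80.6, 123 and 110 FPKM in WT and were listed at 0 in PU.1-/-, whereas C1ra and C1s1, of the same complex, had 1.40 and 1.35 times the WT value there. Cfd, the factor D protease that is made by fat cells and macrophages, was called lower, with 504 and 162 FPKM and a ratio of 3.12 (2.95 to 3.29). Adipocyte markers lay beside Cfd, with 2 of 4 called lower (Plin1 at 47.2 and 21.1 FPKM, Lep below 1 FPKM) and a summed FPKM of 231 and 134. Adipoq at 112 and 75.7 FPKM and Cidec at 71.1 and 36.6 FPKM were lower without being called. The part of adipocytes in the Cfd value was not tested.

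Lectin pathway genes went both ways. Masp1, whose products include a protease of the lectin pathway, was the only complement gene above 1 FPKM that was called higher. Masp1 had 5.81 and 13.6 FPKM and a PU.1-/- over WT ratio of 2.34 (2.09 to 2.63). The gene has 2 RefSeq-linked transcripts, and its FPKM does not tell them apart. The ficolin genes Fcna and Fcnb, which encode carbohydrate-binding proteins of the lectin pathway, had 20.4 and 2.12 FPKM in WT and 0.397 and 0 FPKM in PU.1-/-. Colec12, a collectin of endothelium and stroma, had 21.2 and 21.6 FPKM.

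Of the 10 other regulator genes tested and reported, 1 was called higher and 9 were not called. Cd55, which dissociates the convertases on cells, had 13.9 and 9.04 FPKM. Cr1l, Clu, Cd59a and Susd4 had 35.3, 25.9, 5.54 and 0.948 FPKM in WT and 34.8, 30.5, 6.90 and 1.34 FPKM in PU.1-/-. C1rl, a protease related to C1r, had 1.57 and 1.30 FPKM. Neither C9 nor the other terminal pathway genes reached 1 FPKM, and Hc (which encodes C5), C7, C8a, C8b and C9 were listed at 0 in both. C8g and Cd59b were the other 2 genes called higher, each at under 1 FPKM and with a counting interval that held equal values.

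**Figure D3:**
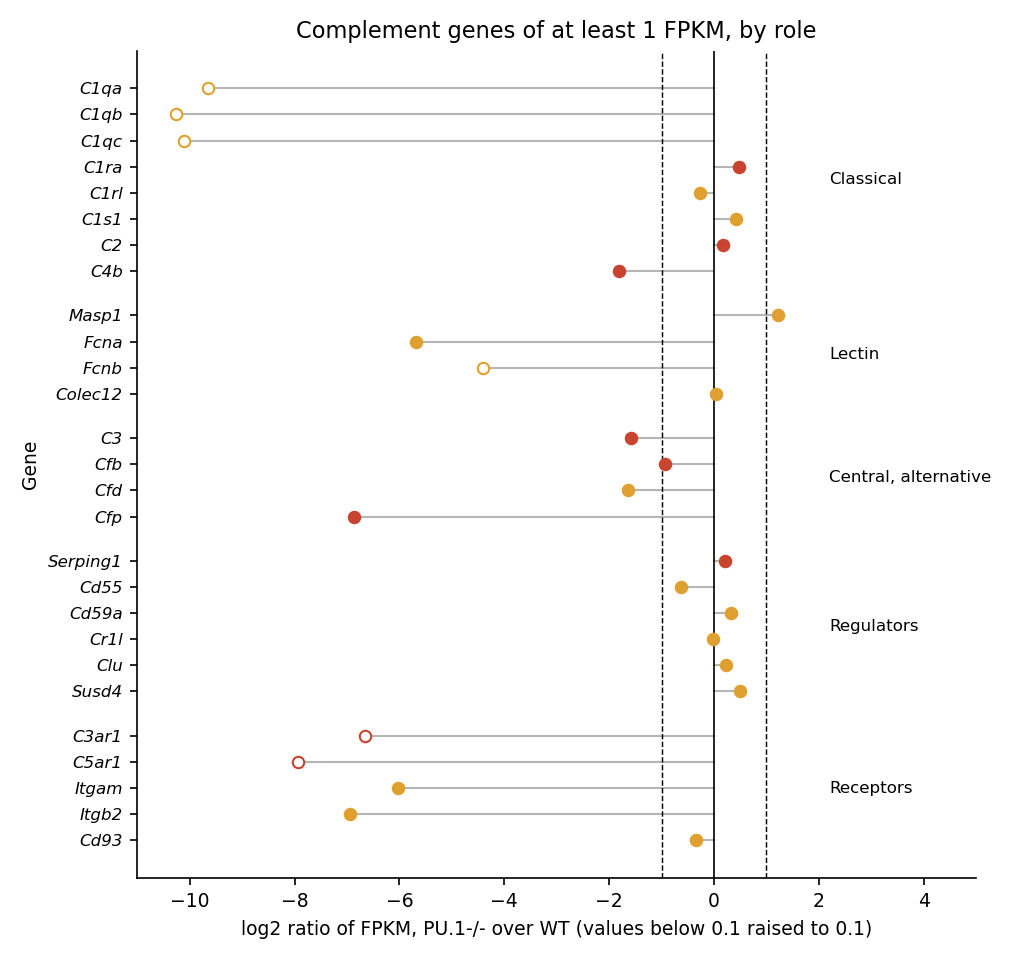
The log2 ratio (PU.1-/- over WT, FPKM under 0.1 set to 0.1) of each complement gene reported here with at least 1 FPKM in a library, by role; red marks the 9 genes described and orange the others, open circles are listed at 0 in PU.1-/-, and dashed lines mark a 2-fold difference. C1q, the ficolins, Cfp and the leukocyte receptors lie far to the left, while Masp1 is the only gene beyond the right line.

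Against all genes tested, Cfp lay among the lowest 0.442% of log2 ratios. The places of C5ar1 and C3ar1, which were listed at 0, are set by the floor and are not given. That of Cfp also depends on the floor, because genes listed at 0 in PU.1-/- are ordered around it by the floor. C4b and C3 lay at 3.54% and 4.20%, and Cfb at 7.03%. Serping1, C2 and C1ra lay at 74.3%, 71.6% and 89.1%. These are places in an order and have no test.

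**Figure D4:**
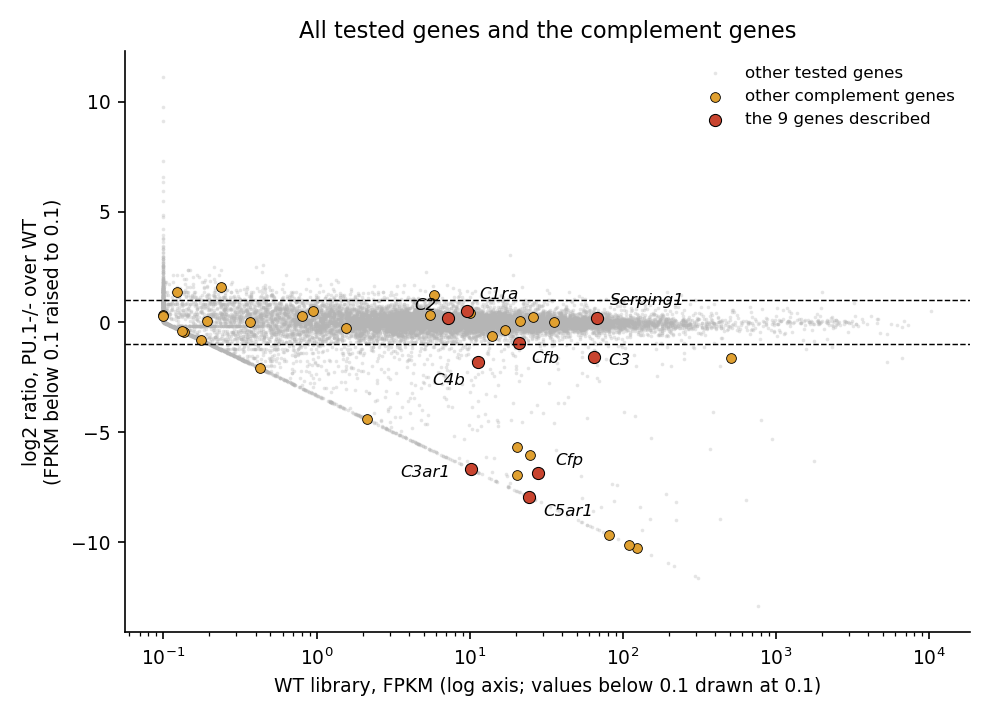
The log2 ratio (PU.1-/- over WT) against FPKM in the WT library (log axis) for the 16298 genes tested; grey points are other genes, orange the other complement genes and red the 9 genes described, and dashed lines mark a 2-fold difference. The diagonal edge at the lower left is made by genes at 0.1 FPKM or less in PU.1-/-, where C3ar1 and C5ar1 lie, while Serping1, C1ra and C2 lie within the band of most genes.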

How the data were processed

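Stranded mRNA libraries of skin wounds, 1 per genotype, were sequenced by the authors as single-end reads and mapped to mm10. The authors deposited FPKM values from Cuffnorm; the submitters' processing notes name TopHat2 2.1.1, Bowtie2 2.2.8, SAMtools 0.1.18 and Cuffdiff 2.2.1. Not given in the sources used here are the annotation, read filters and the use of strand in counting. Groups came from the genotype labels.

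Ratios were taken from the FPKM values with a floor of 0.1, and a ratio of at least 2 was called. Depth was estimated from the FPKM steps with GENCODE M21 transcript lengths less 200 bases, using genes with 1 RefSeq-linked transcript longer than 1500 bases. At that depth 78.2% of 994 low WT values and 80.6% of 963 low PU.1-/- values were whole reads within 0.1. The WT depth and the 200 bases were chosen to give the most such WT values, so the WT share is not a check of them. One read was worth 1.15 times more FPKM in WT. Reads of a gene are estimates from its longest transcript. The 9 genes and all lists were chosen with earlier results of these data known. Named are the 9 genes, Spi1, the other complement genes of at least 1 FPKM and the first markers of each list. Genes under 1 FPKM are only named, and those given with values outside this rule (C4a, C5ar2, Fga, Pi16, Plin1, Ttr, other markers besides the first of a list, Xist, chromosomal neighbours) were chosen after their values were seen. T cell, B cell, pericyte and red blood cell lists (first markers Cd3e, Cd79a, Rgs5 and Hba-a1) had summed FPKM of 2.75, 0.291, 40.6 and 529 in WT and 0, 0.253, 39.8 and 769 in PU.1-/-. One complement gene is not reported here and was left out of the counts of other complement genes. The functions were tested on simulated data. Alternatives were floor, pseudocount, filter, scaling and fold threshold. The tools were numpy 2.4.6, pandas 2.3.3, matplotlib 3.10.9 and scipy 1.17.1 under Python 3.11.15.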

Additional observations from a re-analysis of the deposited data

How the results depend on the processing

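The direction of all 9 genes was the same under the 9 alternatives of floor, pseudocount, filter and scaling. A floor, pseudocount or filter cannot reverse a direction, so this could have failed only under the scalings. The 3 scalings moved log2 ratios by 0.01 to 0.05, less than the log2 ratio nearest to equality among the 9 genes (C2, 0.173). Of the 9 genes, 5 were called lower under each of the 9 alternatives. At a ratio of 1.5 there were 6 (with Cfb) and at a ratio of 3 there were 4 (without C3, at 2.98). None was called higher under any of the 11 alternatives. The median log2 ratio of the 9 genes lay between -1.58 and -1.53. The log2 ratio of C5ar1 lay between -11.25 and -4.61 and that of C3ar1 between -9.99 and -3.34, with the floor or pseudocount, by construction. Cfp lay between -6.87 and -4.55, and C4b between -1.80 and -1.54. Among the other complement genes, 5 were higher with a floor of 0.01 FPKM 1 (Masp1) with a floor or pseudocount of 1 FPKM or with a filter of 1 or 5 FPKM, and 1 (C8g) at a ratio of 3; lower were 7 to 12. Over all genes, 1057 were lower and 565 higher; this was 1867 and 1410 at a ratio of 1.5, 681 and 150 at 3, 589 and 226 with a filter of 1 FPKM, 306 and 98 with one of 5 FPKM, 463 and 164 with a floor of 1 FPKM, and 461 and 89 with a pseudocount of 1 FPKM. No paired analysis was possible because each genotype has 1 library. Depth limits Cfp, with 5 reads in PU.1-/-, more than the other genes above 0.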

Other observations

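The genes next to some of the 9 on the chromosome had values of their own, and were looked up after the values of the 9 genes had been seen. Tnfsf14, a TNF family cytokine gene 9785 bases from C3, had an FPKM of 2.69 in WT and of 0.0757 in PU.1-/-, while Trip10 on the other side of C3 had 21.1 and 20.7 FPKM. Nelfe, next to Cfb, had 26.5 and 23.2 FPKM. Elk1, next to Cfp on chromosome X, had 6.75 and 6.82 FPKM. Foxj2 and Necap1, on either side of C3ar1, had 7.13 and 14.9 FPKM in WT and 9.07 and 15.4 FPKM in PU.1-/-. C5ar2, 2588 bases from C5ar1, had 0.425 and 0.0779 FPKM and was called lower, while Ccdc9 on the other side, 12472 bases away, had 18.7 and 20.3 FPKM. C3 and Cfb each overlap a microRNA gene (Mir6978 and Mir6972), both listed at 0 in both libraries.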
